A study of Mus musculus with 6 samples.

Results

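Aquaporins and NADPH oxidases are described here through 10 genes of the deposited expression table, taken by name: Aqp1, Aqp3, Aqp5, Aqp8, Aqp11, Nox1, Nox4, Cyba, Duox1 and Duox2. All 10 were found among the table's 24454 genes, and no measured threshold entered the rule. The cells are MTflEcad, epithelial breast cancer cells from a mammary gland tumour of the mouse strain MMTV-Neu, in which the MMTV promoter drives a Neu (ERBB2) transgene in mammary epithelium. A line given 80 µM H2O2 each day for 7 months (I80) and a line given 150 µM on the same schedule (DI150) were set against cells that received PBS and no H2O2 (PBS). Each of the 3 groups has 2 RNA-seq libraries, described as biological duplicates. Each dose is represented by 1 long-term line, so dose and line cannot be told apart, and p-values rest on the spread between the libraries sequenced.

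Aquaporins are membrane channels that pass water along osmotic gradients. Several of them, the peroxiporins, also pass H2O2, and others pass glycerol. NADPH oxidases move electrons from NADPH inside the cell across a membrane to oxygen and so make superoxide or H2O2. Most Nox enzymes need the membrane partner p22phox, which Cyba encodes, while Duox enzymes need maturation factors of their own. Aquaporin-5 is known as the water channel on the apical side of secretory gland cells, and NADPH oxidase 4 as an oxidase that is active without a stimulus and releases mainly H2O2.

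Values are CPM, a gene's reads scaled to 1000000 assigned reads in each library. Libraries held 21017849 to 26608715 such reads, and 1 read was worth 0.0376 to 0.0476 CPM. A gene was tested with limma when its mean over the 6 libraries was at least 1 CPM, which 11428 genes met, and it was called at an adjusted p under 0.05. Where a whole group had no read of a gene, a ratio given for it used a floor of 3 reads per library, 0.113 to 0.143 CPM. The limma test used no floor. Of 8 epithelial markers all were tested. Their summed level was 3112 to 3132 CPM in I80, 3156 to 3477 CPM in DI150 and 6523 to 6566 CPM in PBS. Of these markers 6 were called lower in I80 and 6 in DI150 than in PBS, and 1, Epcam, was called higher in DI150. Cdh1 (E-cadherin) was at least 373.9 CPM and Epcam at least 583.2 CPM in every library, while Krt19 had no read in I80 or DI150. Krt19 and Cldn4 passed the filter through PBS alone, so they could hardly be called anything but lower. Of 7 endothelial markers, 4 had no read in any library. Of 10 leukocyte markers, Adgre1 and Tyrobp had none either. The leukocyte list still summed to 22.5 to 27.2 CPM in I80, 63.0 to 74.6 CPM in DI150 and 86.7 to 102.5 CPM in PBS, mostly from Cd14.

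Of the 10 members, 2 passed the filter: Aqp5, and Nox4, which met it through its PBS libraries. Both were called lower in I80 than in PBS, a comparison in which 34.2% of all tested genes were called lower, 66.4% were called in either direction and 83.7% had groups that did not overlap. Both were also called lower in DI150 than in PBS, where 36.1% of all tested genes were called lower, 68.7% were called in either direction and 83.5% did not overlap. Between the treated lines, both were called higher in DI150 than in I80, where 21.9% of all tested genes were called higher, 43.8% were called in either direction and 78.5% did not overlap. The comparisons with PBS share the same PBS libraries. These were the least alike duplicates, with log2 levels over tested genes correlating at 0.991, against 0.998 in I80 and 0.997 in DI150. The limma fit used 1 spread per gene for all 3 groups. Near the read floor, Nox1 and Duox2 had at most 2 reads in any library, and Cyba had no read in any of the 6. The other 5 members (Aqp1, Aqp3, Aqp8, Aqp11 and Duox1) had between 0 and 40 reads per library and were not tested.

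**Figure D1:**
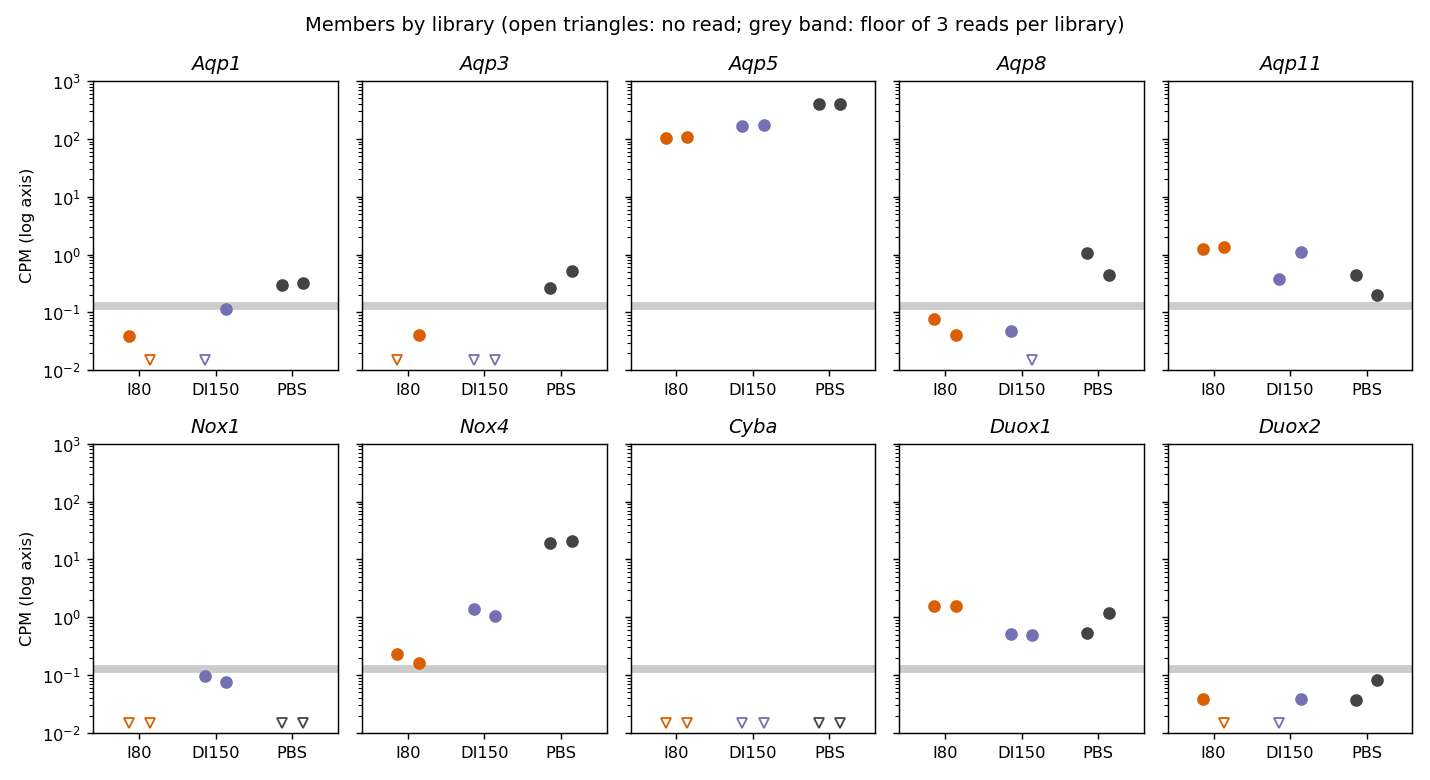
CPM of the 10 members in each of the 6 libraries, on a log axis, with 1 point per library, open triangles for libraries without a read and a grey band for the floor of 3 reads. Aqp5 lies above 100 CPM everywhere, Nox4 lies near 20 CPM in PBS and under 2 CPM in both treated lines, and Cyba has open triangles only.

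The promoters of Aqp5 and Nox4 are printed because these are the members with tested differences. Each sequence holds the 250 bases before the transcription start in the RefSeq promoter table (GRCm38.p6, the build also named mm10), plus strand, with capitals at the GC box GGGCGG.
Aqp5, chr15:99590778-99591027: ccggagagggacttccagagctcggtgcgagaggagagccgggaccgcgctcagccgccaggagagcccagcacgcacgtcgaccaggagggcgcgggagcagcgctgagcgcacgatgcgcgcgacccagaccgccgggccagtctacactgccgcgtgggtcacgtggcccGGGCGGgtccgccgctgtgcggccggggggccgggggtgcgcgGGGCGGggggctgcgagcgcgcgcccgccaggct
Nox4, chr7:87246399-87246648: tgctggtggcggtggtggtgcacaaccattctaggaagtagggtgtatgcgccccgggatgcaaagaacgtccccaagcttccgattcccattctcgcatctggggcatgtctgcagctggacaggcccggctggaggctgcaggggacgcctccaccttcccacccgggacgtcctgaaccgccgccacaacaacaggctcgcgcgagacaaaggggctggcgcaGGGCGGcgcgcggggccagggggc
The Nox4 window starts inside the gene as RefSeq annotates it, since the table uses a start 2219 bases downstream of the gene's first annotated base. GC bases made up 78.4% of the Aqp5 window, with 38 CG pairs, and 67.2% of the Nox4 window, with 20 CG pairs.

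All 10 members had a window in that table, and 4 motifs were searched on both strands. The GC box GGGCGG was found 2 times before Aqp5, at 77 to 72 and 34 to 29 bases upstream of the start, and once before Nox4, at 24 to 19 bases upstream. Aqp1, Aqp3 and Cyba also held it, and 32.7% of all 32851 windows did. The core of the antioxidant response element, TGACNNNGC, was in none of the 10 windows and in 10.2% of all windows. The AP-1 letters TGANTCA, which can lie within that core, were in none of the 10 and in 6.75% of all. The TATA box TATAAA was in the Aqp3 window alone among the members, 29 to 24 bases upstream, and in 12.4% of all windows.

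Among the aquaporins, Aqp5 (gene 11830, chr15:99591028-99594829, plus strand) was the only member with more than 2 CPM in any library. Its level was 102.5 and 108.9 CPM in I80, 169.4 and 176.9 CPM in DI150, and 406.0 and 404.1 CPM in PBS. No library of any group overlapped another group, and PBS was highest in both of its libraries. The mean was 105.7 ± 4.56 CPM in I80 and 405.0 ± 1.35 CPM in PBS (SD, n = 2 each), 3.83-fold lower in I80. On the log2(CPM + 0.5) scale this was a change of -1.93 ± 0.064 (SE), with an adjusted p of 2.68e-07 from limma. In DI150 the mean was 173.2 ± 5.35 CPM (SD, n = 2), 2.34-fold lower than in PBS, with a log2 change of -1.22 ± 0.064 (SE) and an adjusted p of 2.30e-06 from limma. DI150 stood 1.64-fold above I80, with a log2 difference of 0.71 (95% interval 0.56 to 0.86) and an adjusted p of 0.00021 from limma. In bulk RNA, fewer cells of a type and less RNA per cell cannot be told apart. The summed epithelial markers were lower in the treated lines as well, with the largest drops in Krt8 and Krt18. Krt8 averaged 694.9 CPM in I80, 590.3 CPM in DI150 and 1950.3 CPM in PBS. Krt18 averaged 967.6 CPM in I80, 920.3 CPM in DI150 and 2768.1 CPM in PBS. Epcam went the other way, with 681.7 CPM in I80, 1055.3 CPM in DI150 and 605.9 CPM in PBS, and was called higher in DI150 alone. The part of these markers in the Aqp5 result was not tested.

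Aqp1 (gene 11826, chr6:55336299-55348555), the water channel of endothelium and many epithelia, had 1 and 0 reads in I80, 0 and 3 reads in DI150, and 8 and 8 reads in PBS. The treated libraries were all below the PBS libraries, none of them above 3 reads. Pooled over the libraries of a group, the ratio of CPM to PBS was 0.0643 in I80 (exact 95% interval 0.00153 to 0.414) and 0.204 in DI150 (0.0381 to 0.712). These intervals cover counting error only. The ratio was 0.125 without I80 replicate 2 and 0.367 without DI150 replicate 1, and the line had no read left when its other library was dropped. The summed level of the 7 endothelial markers was 0.663 to 0.742 CPM in I80, 0.428 to 0.496 CPM in DI150 and 0.150 to 0.324 CPM in PBS, most of it from Tek in the treated lines. Tek had 15 and 17 reads in I80, 8 and 11 reads in DI150, and 0 and 1 reads in PBS. Pecam1 had 2 and 1 reads in I80, 1 and 1 reads in DI150, and 4 and 5 reads in PBS, and Cdh5 had 2 reads or fewer everywhere. The part of endothelial cells in the Aqp1 values was not tested.

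Aqp3 (gene 11828, chr4:41092724-41098183) encodes an aquaglyceroporin that passes water, glycerol and H2O2. Its reads numbered 0 and 1 in I80, 0 and 0 in DI150, and 7 and 13 in PBS. Against PBS, the pooled ratio in I80 was 0.0515 (exact 95% interval 0.00124 to 0.322), or 0.106 without I80 replicate 1, and no read was left without I80 replicate 2. DI150 had no read, which puts it at least 3.07-fold lower than PBS when the floor of 3 reads is set for each library.

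Aqp8 (gene 11833, chr7:123462294-123468003) encodes a peroxiporin known from mitochondria and plasma membranes. It had 2 and 1 reads in I80, 1 and 0 reads in DI150, and 28 and 11 reads in PBS, which is 1.05 and 0.445 CPM in PBS. The PBS libraries lay above every treated library, and PBS replicate 1 had over 2 times the reads of PBS replicate 2. The pooled ratio to PBS was 0.0792 in I80 (exact 95% interval 0.0156 to 0.249) and 0.0279 in DI150 (0.000688 to 0.165). Without PBS replicate 1 it was 0.135 in I80 and 0.0476 in DI150, and without DI150 replicate 3 it was 0.0626 in DI150. DI150 had no read left without its replicate 1. Between DI150 and I80 no ratio is given for Aqp1, Aqp3 or Aqp8, since both groups were at or under the floor.

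Aqp11 (gene 66333, chr7:97726379-97738247), a distant family member found in the endoplasmic reticulum, was the 1 aquaporin member with more reads in the treated lines. Its level was 1.25 and 1.36 CPM in I80, 0.381 and 1.11 CPM in DI150, and 0.451 and 0.202 CPM in PBS. I80 did not overlap PBS, whereas DI150 replicate 1 lay within the PBS range and DI150 replicate 3 above it. The pooled ratio to PBS was 3.93 in I80 (exact 95% interval 2.28 to 7.16) and 6.44 without PBS replicate 1. It was 2.37 in DI150 (1.30 to 4.48), 1.15 without DI150 replicate 3 and 3.88 without PBS replicate 1. Against I80, DI150 had a pooled ratio of 0.601 (0.390 to 0.914), or 0.292 without DI150 replicate 3.

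**Figure D2:**
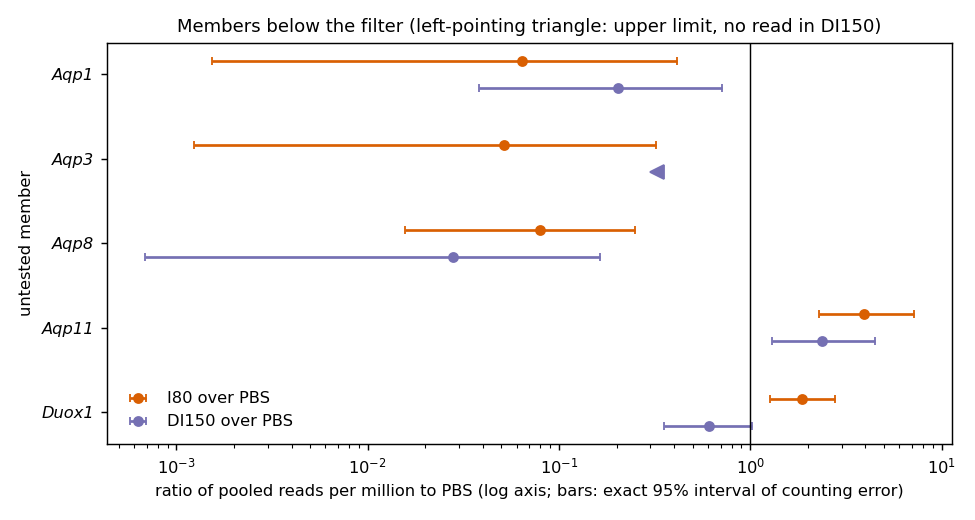
Ratio of pooled CPM to PBS, on a log axis, for the 5 untested members with more than 3 reads in some library, with exact 95% intervals of counting error and a left-pointing triangle as the upper limit for Aqp3 in DI150. Aqp1, Aqp3 and Aqp8 lie below 1 in I80 and DI150, Aqp11 lies above 1 in I80 and DI150, and Duox1 lies above 1 in I80 with a DI150 interval of 0.352 to 1.02.

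The 7 other aquaporins of the mouse were examined as a list, and 1 of them, Aqp9, was tested. Aqp9 (gene 64008, chr9:71110659-71167849) encodes an aquaglyceroporin best known from liver. Its level was 39.3 and 43.5 CPM in I80, 2.95 and 2.48 CPM in DI150, and 1.95 and 6.27 CPM in PBS. I80 stood above every other library, while both DI150 libraries lay between the PBS libraries. The I80 mean was 10.1-fold that of PBS, with a log2 change of 3.36 ± 0.40 (SE) and an adjusted p of 0.000193 from limma. Its size depended on the PBS library, with a log2 change of 2.63 without PBS replicate 1 and 4.09 without PBS replicate 2. For DI150 against PBS the log2 difference was -0.35 (95% interval -1.28 to 0.59), with an adjusted p of 0.466 from limma, and its sign turned when PBS replicate 2 was left out (0.39). DI150 was 15.2-fold lower than I80, with a log2 change of -3.70 and an adjusted p of 0.000419 from limma. Over all tested genes, 32.3% were called higher in I80 than in PBS.

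Of the remaining aquaporins, Aqp2, the vasopressin-regulated channel of the kidney collecting duct, had 2 and 1 reads in PBS and none in I80 or DI150. Aqp6, an intracellular channel of the kidney, had 2 reads in PBS replicate 2 alone. Mip, the aquaporin of the lens fibre cell, had 1 read in DI150 replicate 3 and 1 in PBS replicate 2. Aqp4, the astrocyte channel, Aqp7, the glycerol channel of fat cells, and Aqp12 of the pancreas had no read in any library. Aqp2, Aqp5 and Aqp6 lie in 1 cluster: Aqp2 ends 6482 bases before Aqp5 and Aqp6 starts 3638 bases after it.

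Levels of different genes were compared per kilobase of exon. Aqp5 made up 80.3% and 79.7% of the summed aquaporin CPM per kilobase in I80, 98.8% and 98.9% in DI150, and 99.1% and 98.5% in PBS. Aqp9 supplied 19.3% and 20.0% in I80, 1.08% and 0.869% in DI150, and 0.299% and 0.959% in PBS. The sum over all 12 aquaporins was 49.1 and 52.6 CPM per kilobase in I80, 65.95 and 68.9 in DI150, and 157.7 and 157.8 in PBS. Aqp5 was the leading aquaporin in every library, and no DI150 or PBS library reached the Aqp9 share of I80.

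**Figure D3:**
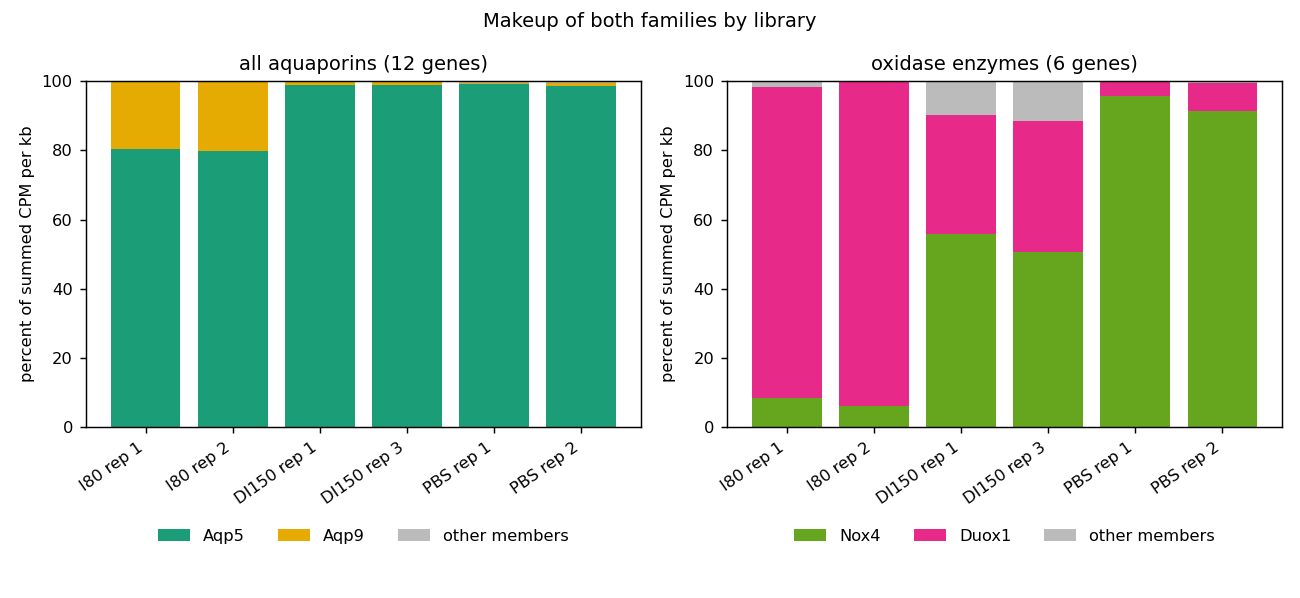
Share of each gene in the summed CPM per kilobase of 12 aquaporins (left) and of 6 NADPH oxidase enzymes (right), in percent, with 1 stacked bar per library. Aqp5 holds at least 79.7% of the aquaporin sum in every library, whereas Nox4 holds 8.38% and 6.14% of the oxidase sum in I80, 56.0% and 50.6% in DI150, and 95.6% and 91.3% in PBS.

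Among the oxidase enzymes, Nox4 (gene 50490, chr7:87244430-87398710, plus strand) was the only member tested. Its level was 0.234 and 0.165 CPM in I80, 1.38 and 1.07 CPM in DI150, and 19.2 and 20.9 CPM in PBS. That is 6 and 4 reads in I80, 29 and 28 reads in DI150, and 511 and 518 reads in PBS. The 3 groups did not overlap, and the I80 libraries were close to the floor. Nox4 passed the filter through its PBS libraries, so a call against PBS could hardly be anything but lower. Without a filter it was called lower in both lines as well. The mean was 0.199 ± 0.0490 CPM in I80 and 20.1 ± 1.23 CPM in PBS (SD, n = 2 each), 100.6-fold lower in I80. On the log2(CPM + 0.5) scale, which understates differences of genes this low, the change was -4.88 ± 0.17 (SE), with an adjusted p of 3.48e-07 from limma. In DI150 the mean was 1.22 ± 0.220 CPM (SD, n = 2), 16.4-fold lower than in PBS, with a log2 change of -3.58 (95% interval -3.98 to -3.18) and an adjusted p of 1.37e-06 from limma. DI150 was 6.14-fold above I80, with a log2 difference of 1.30 (95% interval 0.90 to 1.70) and an adjusted p of 0.00100 from limma. That difference was 0.89 with a pseudocount of 1, 2.14 with a pseudocount of 0.1 and 2.56 by edgeR on the recovered reads, and it was called each time. Fibroblasts also use Nox4, and the 6 fibroblast markers summed to 23.4 to 24.0 CPM in I80, 21.98 to 22.8 CPM in DI150 and 21.8 to 23.7 CPM in PBS, with Pdgfrb at 0 in every library. Members of that list moved in opposite directions. Col1a2 had no read in I80 or DI150 and 15.30 and 15.33 CPM in PBS, and it was called lower in both lines (adjusted p 3.08e-07 in I80 and 2.74e-07 in DI150, limma). It passed the filter through PBS alone, so lower was the only call it could get. Col1a1 and Pdgfra were called higher in both lines, Pdgfra with means of 14.8 CPM in I80, 18.7 CPM in DI150 and 5.27 CPM in PBS. Their part in the Nox4 result was not tested.

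Nox1 (gene 237038, chrX:134086421-134137711), the oxidase of colon epithelium that works with Noxo1 and Noxa1, had 2 reads in each DI150 library and none in I80 or PBS. All of these are under the floor of 3 reads, so no ratio is given.

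Cyba (gene 13057, chr8:122424771-122432940) encodes p22phox, the partner of Nox1 and Nox4. It had 0 reads in all 6 libraries, out of 148451953 reads in total. The table lists 7704 genes without a read in any library. Neighbouring genes did have reads. Zc3h18, which ends 7405 bases before Cyba, had 4806 pooled reads in I80, 5059 in DI150 and 9055 in PBS. Mvd, which starts 655 bases after Cyba and encodes an enzyme of cholesterol synthesis, had 1418 pooled reads in I80, 1227 in DI150 and 3212 in PBS. Whether the counting left Cyba out was not tested.

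Duox1 (gene 99439, chr2:122313010-122347972) encodes a calcium-regulated oxidase that releases H2O2 at the surface of epithelia such as thyroid and airway. Its level was 1.56 and 1.57 CPM in I80, 0.523 and 0.496 CPM in DI150, and 0.526 and 1.17 CPM in PBS. Both I80 libraries were above both PBS libraries, and both DI150 libraries lay just below PBS replicate 1. Its mean over the 6 libraries, 0.974 CPM, was just under the filter, so it was not tested. The pooled ratio was 1.87 for I80 to PBS (exact 95% interval 1.27 to 2.78), 0.607 for DI150 to PBS (0.352 to 1.02) and 0.325 for DI150 to I80 (0.197 to 0.519). Without PBS replicate 2 the ratio to PBS was 2.97 for I80 and 0.966 for DI150.

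Duox2 (gene 214593, chr2:122279246-122298740), the other dual oxidase, had 1 and 0 reads in I80, 0 and 1 reads in DI150, and 1 and 2 reads in PBS. Every library was at or under the floor. Duoxa1, which encodes the maturation factor of Duox1, had 2 and 4 reads in I80, 1 and 0 reads in DI150, and 9 and 11 reads in PBS. Its pooled ratio to PBS was 0.309 in I80 (exact 95% interval 0.101 to 0.797) and 0.0544 in DI150 (0.00131 to 0.340). It was 0.200 without I80 replicate 2 and 0.122 without DI150 replicate 3, and DI150 had no read left without its replicate 1. Duoxa1 and Duox1 lie on opposite strands and share 754 bases, and whether the counting used strand is not given in the sources used here, so reads in those bases cannot be told apart. Duoxa2 had no read.

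The summed level of the 6 oxidase enzymes (Nox1, Nox3, Nox4, Cybb, Duox1 and Duox2) was 0.330 and 0.317 CPM per kilobase in I80, 0.291 and 0.249 in DI150, and 2.37 and 2.71 in PBS. Duox1 made up 89.9% and 93.9% of it in I80, 34.1% and 37.8% in DI150, and 4.21% and 8.22% in PBS. The leading enzyme was Duox1 in both I80 libraries and Nox4 in every DI150 and PBS library.

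Ordered by CPM per kilobase, the I80 means of the members were 40.7 for Aqp5, 0.297 for Duox1, 0.138 for Aqp11, 0.0377 for Aqp8 and 0.0235 for Nox4, and the libraries of Aqp8 and Nox4 overlapped. In DI150 the order was 66.6 for Aqp5, 0.145 for Nox4, 0.0968 for Duox1 and 0.0790 for Aqp11, and the libraries of Duox1 lay within the spread of Aqp11. In PBS it was 155.8 for Aqp5, 2.37 for Nox4, 0.473 for Aqp8, 0.216 for Aqp3, 0.161 for Duox1, 0.119 for Aqp1, 0.0347 for Aqp11 and 0.00875 for Duox2. Over the 2 PBS libraries, Aqp8 overlapped Aqp3, Aqp3 overlapped Duox1 and Duox1 overlapped Aqp1. Members left out of an order had 4 reads or fewer in the group.

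Genes that work with the oxidases were counted as a list of 16, of which 7 were tested. In I80, 2 of the 7 were called higher and 5 lower than in PBS, and the same counts were found for DI150 against PBS, where 32.7% of all tested genes were called higher. The list's median log2 change was -0.48 in I80 and -0.53 in DI150, beside -0.00205 in I80 and -0.0321 in DI150 over all tested genes. Between DI150 and I80, 1 was called lower and 6 were not called.

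The higher genes encode organizers. Noxo1, the organizer of the Nox1 complex, had 37.7 and 39.1 CPM in I80, 51.6 and 57.5 CPM in DI150, and 13.3 and 22.3 CPM in PBS. Both treated lines lay above PBS without overlap, 2.16-fold in I80 (log2 change 1.14, adjusted p 0.00182, limma) and 3.07-fold in DI150 (log2 change 1.64, adjusted p 0.000257, limma). Nox1 itself, the enzyme that Noxo1 serves, was at the floor in the same libraries, and its activator Noxa1 had 1 read in I80 replicate 2 alone. Sh3pxd2a, the podosome scaffold Tks5, averaged 316.3 CPM in I80, 359.2 CPM in DI150 and 200.7 CPM in PBS, with log2 changes of 0.65 in I80 (adjusted p 0.000929, limma) and 0.83 in DI150 (adjusted p 0.000255, limma).

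Its relative Sh3pxd2b, the scaffold Tks4, fell instead. Sh3pxd2b had 106 and 103 CPM in I80, 14.6 and 14.5 CPM in DI150, and 453 and 469 CPM in PBS. The groups were far apart and the libraries of each lay close together. It was 4.41-fold lower in I80 (log2 change -2.13, adjusted p 1.85e-07, limma) and 31.7-fold lower in DI150 (log2 change -4.94, adjusted p 1.32e-08, limma) than in PBS. DI150 was 7.19-fold lower than I80 (log2 change -2.80, adjusted p 8.70e-07, limma). Its order over the groups, with DI150 lowest, was not that of Nox4 and Aqp5, which were lowest in I80.

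The other 4 tested partners fell by smaller amounts in both lines. Cybc1, a chaperone of the phagocyte oxidase, averaged 33.5 CPM in I80, 32.3 CPM in DI150 and 54.7 CPM in PBS, with log2 changes of -0.70 in I80 (adjusted p 0.000144, limma) and -0.75 in DI150 (adjusted p 9.07e-05, limma). Poldip2, a protein known to bind p22phox and raise Nox4 activity, averaged 84.1 CPM in I80, 80.9 CPM in DI150 and 117.1 CPM in PBS, with log2 changes of -0.48 in I80 (adjusted p 0.000825, limma) and -0.53 in DI150 (adjusted p 0.000456, limma). The GTPase gene Rac1 averaged 231.7 CPM in I80, 245.6 CPM in DI150 and 299.5 CPM in PBS, with log2 changes of -0.37 in I80 (adjusted p 0.00125, limma) and -0.28 in DI150 (adjusted p 0.00456, limma). Rac3, a relative of Rac1, averaged 1.08 CPM in I80, 1.56 CPM in DI150 and 3.24 CPM in PBS, with log2 changes of -1.24 in I80 (adjusted p 0.000385, limma) and -0.86 in DI150 (adjusted p 0.00251, limma).

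**Figure D4:**
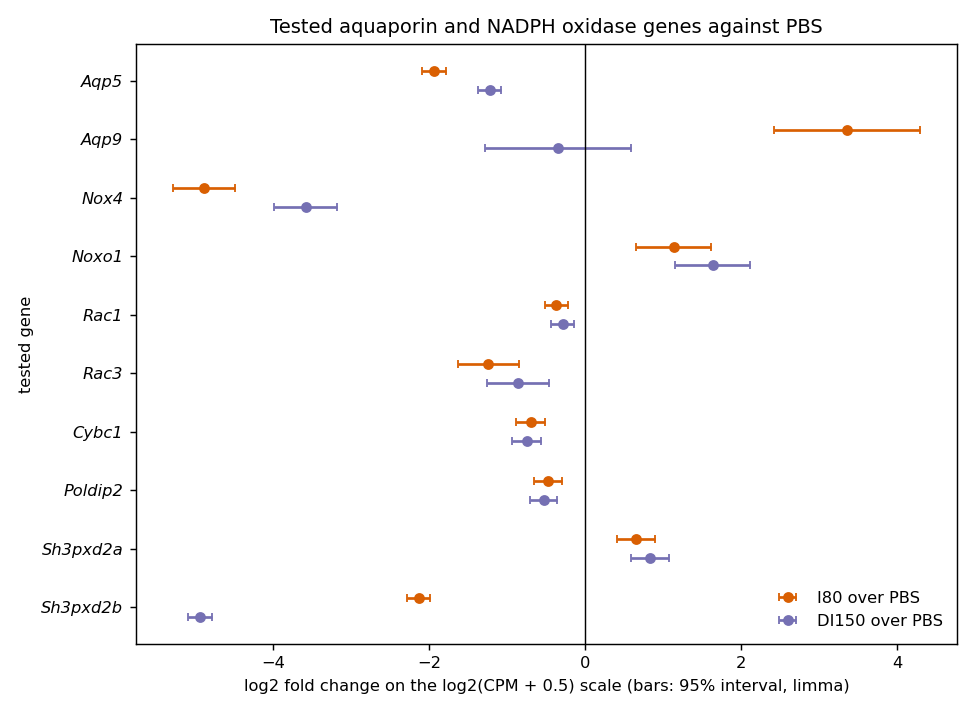
Log2 fold change against PBS for the 10 tested genes among the members, the other aquaporins and the oxidase partners, I80 above DI150, with 95% intervals from limma. Aqp5, Nox4 and Sh3pxd2b lie left of 0 in I80 and DI150, Noxo1 and Sh3pxd2a lie right of 0, and Aqp9 lies at 3.36 in I80 with a DI150 interval of -1.28 to 0.59.

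Cytosolic subunits known from phagocytes were below the filter. Ncf4 (p40phox) had 4 and 0 reads in I80, 0 and 2 reads in DI150, and 7 and 21 reads in PBS, with pooled ratios to PBS of 0.147 (exact 95% interval 0.0375 to 0.420) in I80 and 0.0777 (0.00896 to 0.308) in DI150. Without PBS replicate 2 these ratios were 0.305 for I80 and 0.161 for DI150, and without PBS replicate 1 they were 0.0944 for I80 and 0.0499 for DI150. Dropping I80 replicate 1 or DI150 replicate 3 left its line no Ncf4 read, while the ratio was 0.286 without I80 replicate 2 and 0.140 without DI150 replicate 1. Ncf1 (p47phox) had 1 and 1 reads in I80, 1 and 5 reads in DI150, and 3 and 11 reads in PBS, and DI150 overlapped PBS. Cybb, the phagocyte enzyme itself, Nox3 of the inner ear and Rac2 of blood cells had no read. The 10 leukocyte markers summed to 22.5 to 27.2 CPM in I80, 63.0 to 74.6 CPM in DI150 and 86.7 to 102.5 CPM in PBS, mostly from Cd14. Csf1r had no read in I80 or DI150 and 7.67 and 14.5 CPM in PBS, and Ptprc (CD45) was at most 0.263 CPM in every library. Ptprc had 2 and 2 reads in I80, 3 and 0 reads in DI150, and 7 and 6 reads in PBS. Cd14 was called lower in I80, at 22.2 CPM against 80.9 CPM in PBS (adjusted p 1.10e-05, limma), and was not called in DI150 against PBS. Markers of the list thus moved in different ways. Fcer1g had 17 and 11 reads in I80, 4 and 4 reads in DI150, and 4 and 6 reads in PBS. Itgam had 5 and 3 reads in DI150 and none elsewhere, and Cd68 was called in neither line against PBS. Their part in the Ncf4 values was not tested.

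Other enzymes that release H2O2 were counted as a list of 26, of which 13 were tested. Against PBS, 9 of the 13 were called higher, 1 lower and 3 neither in I80, and the same counts were found in DI150. Over all tested genes, 32.3% were called higher and 34.2% lower in I80, and 32.7% higher and 36.1% lower in DI150. The median log2 change of the 13 was 1.13 in I80 and 0.67 in DI150, beside -0.00205 in I80 and -0.0321 in DI150 over all tested genes. DI150 against I80 gave 2 higher, 4 lower and 7 not called, where 21.9% of all tested genes were called each way. Acox2, a peroxisomal acyl-CoA oxidase, averaged 213.3 CPM in I80, 226.2 CPM in DI150 and 52.0 CPM in PBS, 4.10-fold higher in I80 (adjusted p 2.02e-05, limma) and 4.35-fold higher in DI150 (adjusted p 1.47e-05, limma). Aox1, an aldehyde oxidase, averaged 68.9 CPM in I80, 72.8 CPM in DI150 and 16.4 CPM in PBS, 4.21-fold higher in I80 (adjusted p 6.66e-06, limma) and 4.45-fold higher in DI150 (adjusted p 5.01e-06, limma). The 1 lower gene was not the same in both lines. In I80 it was Ero1b, an oxidase of protein folding, with 6.69 CPM against 11.5 CPM in PBS (log2 change -0.75, adjusted p 0.00369, limma). In DI150 it was Maoa, monoamine oxidase A, with 66.8 CPM against 83.9 CPM in PBS (log2 change -0.33, adjusted p 0.00570, limma), while I80 at 113.4 CPM was called higher than PBS (log2 change 0.43, adjusted p 0.00137, limma).

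The genes whose pattern over the 6 libraries was nearest to that of Aqp5 were Maged1 and E2f2, by the root mean square difference of log2 values centred on each gene's mean. For Maged1 that difference was 0.0579, with mean levels of 54.7 CPM in I80, 97.8 CPM in DI150 and 220.7 CPM in PBS. For E2f2 it was 0.0727, with 13.1 CPM in I80, 20.6 CPM in DI150 and 49.0 CPM in PBS. Nearest to Nox4 were Gpr137b, at 0.108, and Ctsc, at 0.127. Gpr137b averaged 1.40 CPM in I80, 4.09 CPM in DI150 and 48.4 CPM in PBS, and its reads may be shared with the pseudogene Gpr137b-ps. Ctsc, which encodes the protease cathepsin C, averaged 5.44 CPM in I80, 16.2 CPM in DI150 and 165.1 CPM in PBS. These likenesses are descriptions over 6 libraries that fall into 3 groups.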

How the data were processed

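RNA of 6 MTflEcad samples was depleted of ribosomal RNA and sequenced, per the labels' protocols; STAR and mm10 are named in the submitters' processing notes, while counter, annotation and strand setting were not given in the sources used here. CPM, as deposited by the authors for 24454 gene numbers, sum to 1000000 per library, and 100.0% of the 146724 values were whole multiples of 1 read within 1e-06 reads, so reads were recovered. Columns were grouped by name. A DI150 column numbered 3 matches no label number and is called DI150 replicate 3. No column was left unused. RefSeq (GRCm38.p6) gave symbols and positions for 24374 genes, and GENCODE gave exon lengths for 21327.

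The test was limma 3.58.1 (R 4.3.3; lmFit, eBayes with trend, two-sided) on log2(CPM + 0.5) over the 11428 genes averaging 1 CPM or more in the 6 libraries, with all 3 groups in 1 fit (3 residual degrees of freedom, prior 4.52) and Benjamini-Hochberg adjustment over all tested genes. On simulated data for I80 against PBS, with 200 of 11428 genes changed 4-fold, 100% were recovered, with 8 false calls. The simulation gave all genes and groups the same spread beyond counting error and changed far fewer genes than were called in the data. It therefore does not give the rate of false calls in the data. Untested genes are given as reads, with exact (Clopper-Pearson) 95% intervals of pooled ratios and a floor of 3 reads per library. Intervals and floors cover counting error only, since PCR copies were not told apart. edgeR 4.0.16 and DESeq2 1.42.0 on the recovered reads, other scalings, pseudocounts and filters, and left-out libraries were alternatives.

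All 10 members, 7 other aquaporins and 16 oxidase partners were to be named whatever their values, 1 partner being not reported here; of 26 other oxidases, the rule named up to 2 called genes with the largest log2 change each way against PBS. Nearest patterns leave out predicted genes. Members and lists were chosen with earlier results of these data known.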

Additional observations from a re-analysis of the deposited data

Results flagged for a closer look

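The limma test between the treated lines covered 2 members, 1 other aquaporin, 7 oxidase partners and the 4 named H2O2-releasing enzymes. For 6 of these genes the response of DI150 differed from that of I80. That is close to the share over all tested genes, of which 43.8% were called. On the log2 scale, DI150 over I80, the differences were 0.71 for Aqp5 (adjusted p 0.00021) and 1.30 for Nox4 (adjusted p 0.00100), both lower than PBS in each line and less so in DI150. Aqp9 differed by -3.70 (adjusted p 0.000419), with 2.95 and 2.48 CPM in DI150 against 39.3 and 43.5 CPM in I80. Sh3pxd2b differed by -2.80 (adjusted p 8.70e-07) and was lower than PBS in each line, more so in DI150. Ero1b differed by 0.82 (adjusted p 0.00499), with 12.2 CPM in DI150, 6.69 CPM in I80 and 11.5 CPM in PBS. Maoa differed by -0.76 (adjusted p 0.000307), with 66.8 CPM in DI150, 113.4 CPM in I80 and 83.9 CPM in PBS. With 2 libraries per group, no single library could be tested as an outlier.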

How the results depend on the processing

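Aqp5 and Nox4 kept their direction and their calls in all 3 comparisons under every alternative run: TMM and median-of-ratios scaling, pseudocounts of 0.1 and 1, no filter, only the 4 libraries compared, robust variances, edgeR, DESeq2, the replicate block and each left-out library. With all libraries kept, the log2 change of Aqp5 ran from -1.94 to -1.91 for I80 over PBS, -1.24 to -1.19 for DI150 over PBS and 0.70 to 0.73 for DI150 over I80. For Nox4 it ran from -6.65 to -4.13 for I80 over PBS, -4.05 to -3.25 for DI150 over PBS and 0.89 to 2.61 for DI150 over I80. Leaving out 1 library moved them to -1.98 to -1.89, -1.26 to -1.19 and 0.67 to 0.75 for Aqp5 and to -4.95 to -4.81, -3.71 to -3.45 and 1.17 to 1.43 for Nox4, with the comparisons in that order. Without a filter (16750 genes) limma called 6 members for I80 over PBS, 6 for DI150 over PBS and 4 for DI150 over I80, against 2 each with the filter. Of all genes it then called 49.7% for I80 over PBS, 52.1% for DI150 over PBS and 28.3% for DI150 over I80. For I80 over PBS the added ones were Aqp1, Aqp3, Aqp8 and Aqp11, for DI150 over PBS Aqp1, Aqp3, Aqp8 and Nox1, and for DI150 over I80 Duox1 and Nox1. edgeR without a filter, chosen after seeing the data, called 6 members for I80 over PBS, 4 for DI150 over PBS (Aqp3, Aqp8, Aqp5 and Nox4) and 3 for DI150 over I80 (Aqp5, Nox4 and Duox1), beside 50.3%, 52.3% and 31.0% of all genes. It did not call Nox1 (adjusted p 0.182 for DI150 over PBS and 0.254 for DI150 over I80) or Aqp1 for DI150 over PBS (0.107). These calls rest on few reads, and depth limits every member other than Aqp5 and Nox4.

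With DI150 replicate 3 set beside replicate 2 of the other groups, deviations from the group means correlated at 0.0228 for I80 and PBS, -0.0551 for DI150 and PBS, and 0.213 for DI150 and I80. Not every pair was above 0.1, so the numbers were not taken as pairs. The replicate block, run as an alternative, used the numbers as they stand, so DI150 replicate 3 formed a level of its own. In that fit DI150 therefore rested on its replicate 1 alone. The loss of that library and an effect of pairing cannot be told apart there. With the replicate block, genes called for DI150 over I80 numbered 1361 higher and 1327 lower, against 2503 and 2505. Leaving out 1 library gave 1295 to 3008 higher and 1187 to 2965 lower, the fewest without I80 replicate 1 or 2, and 1547 to 1561 higher and 1451 to 1662 lower without DI150 replicate 1 or 3. The block ended the Rac1 call for DI150 over PBS (-0.32) and changed no call of a member. Among the genes beside the members, Aqp9 for DI150 over PBS turned to 0.16 under the block and 0.39 without PBS replicate 2, and was -1.08 without PBS replicate 1 (adjusted p 0.00302). Ero1b for DI150 over PBS ranged from -0.043 to 0.189 over the left-out libraries (-0.01 without PBS replicate 1), and Poldip2 for DI150 over I80 from -0.11 to 0.000741. Noxo1 for DI150 over I80 (adjusted p 0.0878) was called in 6 alternatives (0.00646 to 0.0453), Rac3 in 3 and Sh3pxd2a in 1. The cause of these shifts was not tested.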

Other observations

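Ctsc lies on the same chromosome as Nox4, 879313 bases from it (chr7:88278024-88315861). The only other tested gene within 2000000 bases of Nox4 was Tmem135, which averaged 88.5 CPM in I80, 74.7 CPM in DI150 and 45.2 CPM in PBS. Against PBS, Tmem135 was called higher in I80 (log2 change 0.96, adjusted p 3.47e-05, limma) and in DI150 (log2 change 0.72, adjusted p 0.000155, limma). Within 1000000 bases of Aqp5 there were 39 other tested genes. Of these, 26 were called lower and 7 higher in I80 than in PBS, and 26 lower and 6 higher in DI150 than in PBS. Over all tested genes, 34.2% were called lower in I80 and 36.1% in DI150. Both windows were chosen after the values were seen.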
